A study of Mus musculus with 4 samples.

Results

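The genes described here encode the vacuolar proton pump (V-ATPase) and the proteins of the lysosome it acidifies, 42 genes in all, in regulatory T cells (Treg) of mice given an agonistic antibody to death receptor 3 (DR3) or a control antibody. They were chosen by name for their function after earlier results of these arrays were known. Atp6v0d2 had been selected by its rise in this same comparison, so its values are a description and no p is given for it. Each gene was represented by its brightest probe set, chosen by the highest mean log2 intensity over the 4 arrays among probe sets with 1 gene symbol in the platform annotation. Of the 42 genes 40 had such a probe set, among 22180 genes of the series. Atp6v0c, the proteolipid of the proton channel, and Glb1, the lysosomal beta-galactosidase, had none and are not analysed here. Of the 40 measured genes 39 were bright enough to be tested, each above the median of all probe sets on at least 3 of the 4 arrays, so none was tested only because it was high in 1 group. The exception was Cd63, a tetraspanin of late endosomes, which lay below the median on all arrays.

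The data were 4 Affymetrix arrays of RNA from Treg, CD4 cells marked by the transcription factor Foxp3. There were 2 arrays from mice that received anti-DR3 into the peritoneum and 2 from mice that received an isotype control antibody. In all arrays the cells came from the strain labelled Foxp3Luci-DTR-4(B6 Albino), were sorted as CD4+Foxp3+GFP+, and were taken 4 days after the injection. The labels do not state whether the replicates were separate or pooled mice, or from which organ the cells came, so p-values cover the spread among these arrays alone, and that spread may be technical.

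The V-ATPase moves protons into endosomes, lysosomes and the Golgi. Its V1 sector on the cytosolic face splits ATP, and its V0 sector in the membrane carries the protons. The acid pH lets cathepsins and other hydrolases work, and cells set the capacity of the system in part through TFEB and related transcription factors, which bind E-box sequences in the promoters of many of these genes. The V0 subunit d, which joins the sectors, exists in a form found in most cells, Atp6v0d1, and in a form known mainly from osteoclasts, macrophages and some epithelia, Atp6v0d2. The comparison asked whether Atp6v0d2 moved together with the rest of the pump and with the lysosomal enzymes.

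The promoters of 3 genes that passed the test in this group are shown because each holds the E-box CACGTG that TFEB is known to bind. They are the RefSeq windows of 250 bases before to 50 bases after an annotated start site in GRCm38.p6, written 5′ to 3′ on the gene's own strand, with each CACGTG in capitals. The window of Atp6v0e lies at chr17:26676146-26676445 on the plus strand, and its box begins 3 bases after the start site. Ctsa has a window at chr2:164833523-164833822 on the plus strand, with boxes at -12 and 5 bases from the start site, and Lgmn one at chr12:102439043-102439342 on the minus strand, with its box at -49.
Atp6v0e: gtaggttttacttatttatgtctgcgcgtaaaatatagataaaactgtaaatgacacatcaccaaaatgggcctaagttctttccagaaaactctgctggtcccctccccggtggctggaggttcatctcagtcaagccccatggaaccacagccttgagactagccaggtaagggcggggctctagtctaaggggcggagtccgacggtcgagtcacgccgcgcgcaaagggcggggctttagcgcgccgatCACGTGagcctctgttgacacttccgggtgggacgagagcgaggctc
Ctsa: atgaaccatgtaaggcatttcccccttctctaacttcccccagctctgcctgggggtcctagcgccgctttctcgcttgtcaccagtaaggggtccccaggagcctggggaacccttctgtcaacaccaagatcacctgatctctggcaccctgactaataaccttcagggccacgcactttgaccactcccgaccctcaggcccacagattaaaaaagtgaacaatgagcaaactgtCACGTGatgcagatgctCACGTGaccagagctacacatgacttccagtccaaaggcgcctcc
Lgmn: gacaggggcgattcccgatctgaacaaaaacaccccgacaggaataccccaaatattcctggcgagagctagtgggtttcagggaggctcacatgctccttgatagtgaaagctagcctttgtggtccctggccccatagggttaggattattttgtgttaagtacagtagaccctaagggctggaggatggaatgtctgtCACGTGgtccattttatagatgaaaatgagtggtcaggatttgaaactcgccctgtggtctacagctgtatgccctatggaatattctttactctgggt
A promoter window was present in the RefSeq table for 34 of the 42 genes, and 12 of these (35.3%) held CACGTG in at least 1 window, against 8.09% of all 27025 genes with a window. The longer TCACGTGA, which contains CACGTG, stood in 6 of the 34 (17.6%), against 1.12% of all genes. The full CLEAR element, a longer TFEB consensus that contains both, stood in 0, against 0.37% of all genes. These motifs read the same on both strands. Among the genes that passed the test 3 of 5 with a window held CACGTG, and among the others 9 of 29. These others include Atp6v0c, Cd63 and Glb1, which were not tested, and Glb1 is among the 9. Ctsb and Atp6v0d2 had no window. The other windows of Ctsa and Lgmn, which lie upstream of those printed, and the windows of Ctsz and Lamp2 held none. Member windows had a median GC content of 56.3%, against 52.7% for all windows, and CACGTG itself contains a CpG. A match describes the letters and does not show binding. The genes were chosen for their function, and TFEB is known to bind the promoters of many of them. A share above that of all genes was therefore likely beforehand, and it does not bear on the antibody comparison. The background is all genes with a window, whether or not they were tested on the arrays.

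Among the 38 tested genes other than Atp6v0d2, 6 were higher after anti-DR3 and 0 lower at an adjusted p of 0.05 in limma, a linear model fitted to all 12114 tested genes with Benjamini-Hochberg adjustment over all of them. Over all genes tested 4.49% were called higher and 1.47% lower. Since the genes were chosen with this comparison known, nothing is read from these counts. The 6 were Atp6v0e of the pump, the membrane glycoprotein gene Lamp2, and the protease genes Ctsa, Ctsb, Ctsz and Lgmn. The 2 anti-DR3 arrays lay above both control antibody arrays for 24 of the 38 genes and below both for 2, where all genes tested gave 31.6% and 24.6%. Before adjustment 18 of the 38 were higher and 1 was lower at p below 0.05, where all genes tested gave 16.6% higher and 9.57% lower.

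Atp6v0d2 was the pump gene that differed most in size. Its log2 intensities were 7.45 and 7.86 in the anti-DR3 arrays, against 6.10 and 5.76 in the control antibody arrays. Both anti-DR3 arrays were well above both control antibody arrays, and the gap between the groups exceeded the gap between replicates in either group. Atp6v0d2 was selected by its rise on these same arrays, so this separation and the size of its difference are a description only. The log2 difference was 1.73 ± 0.17, a factor of 3.31, which ranked 5 among the 12114 genes tested. The ± gives, here and throughout, limma's moderated SE. It draws the spread between a gene's own 2 arrays in each group toward that of all genes tested. The SD of Atp6v0d2 itself was 0.29 between the anti-DR3 arrays and 0.24 between the control antibody arrays. Atp6v0d1, the common form of the same subunit, had 8.61 and 8.72 after anti-DR3, against 8.29 and 8.27 after control antibody, a difference of 0.38 ± 0.084 that did not pass (adjusted p = 0.0554, limma). The groups did not overlap here either, but the shift was smaller. The log2 ratio of Atp6v0d2 to Atp6v0d1 within an array was higher after anti-DR3 by 1.34, with an SD of 0.21 between the anti-DR3 arrays and 0.23 between the control antibody arrays. This describes unequal change of the 2 probe sets, 1 of them selected for its rise, and says nothing of how much of either transcript the cells held.

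Among the other V0 genes, Atp6v0e, a small membrane subunit, rose. It had 8.91 and 8.82 after anti-DR3, against 8.37 and 8.43 after control antibody, a difference of 0.47 ± 0.083 or 1.38-fold (adjusted p = 0.0365, limma). Atp6v0b, a proteolipid of the rotor, differed by 0.41 ± 0.12 (adjusted p = 0.106, limma), and its control antibody arrays were far apart at 6.84 and 6.51, while the anti-DR3 arrays gave 7.09 and 7.07. The a subunit genes Atp6v0a1 and Atp6v0a2, which form the proton path through the membrane and direct the pump to its organelle, pointed opposite ways without passing, at -0.16 ± 0.082 and 0.13 ± 0.086 (adjusted p = 0.286 and 0.403, limma).

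None of the 8 V1 genes passed in limma. Before adjustment 5 had p below 0.05 and were higher after anti-DR3, where 16.6% of all genes tested were. Their differences ran from close to 0 for Atp6v1f to 0.32 for Atp6v1b2, with a median of 0.26. Atp6v1b2 and Atp6v1a, the subunits that form the ATP-splitting head, differed by 0.32 ± 0.082 and 0.29 ± 0.078 (adjusted p = 0.0768 and 0.0825, limma). Their values lay close together within groups, with 7.90 and 7.91 after anti-DR3, against 7.64 and 7.54 after control antibody for Atp6v1b2. A dimmer second probe set of Atp6v1b2 gave -0.06. The subunits of the stalk and of its control, Atp6v1c1, Atp6v1e1, Atp6v1d and Atp6v1h, differed by 0.27, 0.26, 0.18 and 0.26, and for these 4 genes the groups did not overlap. For Atp6v1f and for Atp6v1g1, at 0.09, they did. Groups without overlap were common, with 31.6% of all genes tested higher and 24.6% lower in that way. The 2 further probe sets of Atp6v1g1 were below the median on every array. The accessory proteins Atp6ap1, which takes part in assembly, and Atp6ap2, the prorenin receptor, differed by 0.16 and 0.06 and did not pass (adjusted p = 0.294 and 0.678, limma).

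**Figure D1:**
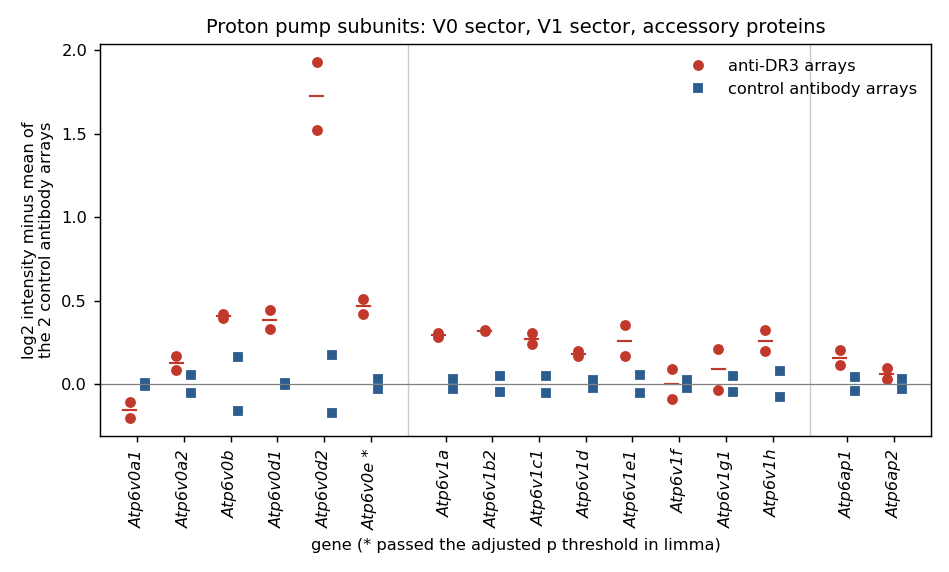
Log2 intensity of the 16 measured pump genes on each array, less the mean of the 2 control antibody arrays (vertical axis), with anti-DR3 arrays as circles to the left of control antibody arrays as squares, a line at the anti-DR3 mean and an asterisk on Atp6v0e, which passed in limma. Atp6v0d2, which carries no asterisk because it was chosen for its rise, stands at 1.73, while the 15 other genes lie between -0.16 and 0.47.

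Without Atp6v0d2 the 15 other pump genes had a median log2 difference of 0.26, and 13 of them were above 0, with 1 called. All genes tested had a median of 0.01, 52.4% were above 0 and 4.49% were called higher. The mean log2 value of these 15 genes was 7.71 and 7.74 in the anti-DR3 arrays and 7.54 and 7.50 in the control antibody arrays. The difference of Atp6v0d2 exceeded that of this mean by 1.52, a description only, since Atp6v0d2 was selected by its rise.

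Lamp2 and Lamp1 encode the main glycoproteins of the lysosomal membrane, and Lamp2 also serves the fusion of autophagosomes and the uptake of proteins by lysosomes. Lamp2 had 8.39 and 8.49 after anti-DR3, against 7.39 and 7.60 after control antibody, so that the groups were far apart. It rose 1.93-fold (0.95 ± 0.10 on the log2 scale, adjusted p = 0.0114, limma). Lamp1 had 9.03 and 8.98 after anti-DR3, against 9.05 and 8.90 after control antibody. These groups overlapped, and the difference was 0.03 ± 0.089 (adjusted p = 0.856, limma). Scarb2, a membrane protein that carries glucocerebrosidase to lysosomes, differed by -0.02 ± 0.080 (adjusted p = 0.884, limma). The dim probe set of Cd63 read 3.84 and 4.10 after anti-DR3, against 4.14 and 4.29 after control antibody and was not tested.

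Of the 9 protease genes 4 rose and 0 fell, and 5 did not pass. The shares over all genes tested were 4.49% higher and 1.47% lower. The genes were chosen with this comparison known, so nothing is read from the count. Lgmn encodes legumain, which cleaves after asparagine, matures several cathepsins and takes part in antigen processing. It had 7.83 and 7.72 after anti-DR3, against 6.81 and 6.67 after control antibody. The replicates lay close together and far from the other group. It rose 2.05-fold (1.03 ± 0.091, adjusted p = 0.00988, limma). Ctsa, a carboxypeptidase that also stabilises other lysosomal enzymes, had 9.63 and 9.73 after anti-DR3, against 9.16 and 9.15 after control antibody, a rise of 0.53 ± 0.081 (adjusted p = 0.0269, limma). Ctsb, a cysteine protease, had 10.43 and 10.41 after anti-DR3, against 9.99 and 9.86 after control antibody, a rise of 0.50 ± 0.085 (adjusted p = 0.0321, limma). Ctsz, also called cathepsin X, is a carboxypeptidase. It had 7.90 and 7.86 after anti-DR3, against 7.53 and 7.48 after control antibody, and rose by 0.38 ± 0.078 (adjusted p = 0.0493, limma), just inside the threshold.

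Ctss, a cysteine protease that trims the invariant chain of MHC class II, lay just outside it. It had 9.93 and 10.07 after anti-DR3, against 9.57 and 9.64 after control antibody, a difference of 0.39 ± 0.088 (adjusted p = 0.0613, limma) in groups that did not overlap. Ctsc, which activates granzymes and other serine proteases, differed by 0.29 ± 0.082 (adjusted p = 0.0945, limma). The aspartic protease gene Ctsd and Tpp1, a tripeptidyl peptidase, differed by 0.11 and 0.13 (adjusted p = 0.440 and 0.380, limma). Ctsl, another cysteine protease, was the 1 protease gene with a difference below 0. Its values were 5.96 and 5.66 after anti-DR3, against 6.12 and 6.17 after control antibody, and the difference of -0.34 ± 0.12 did not pass (adjusted p = 0.141, limma).

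The 4 measured glycosidase genes and the 5 genes of lipid handling had 0 calls in limma, and 1 and 2 of them were higher at p below 0.05 before adjustment (16.6% of all genes tested). The highest differences were those of Man2b1, an alpha-mannosidase, at 0.34 ± 0.089 and of Npc2, a soluble cholesterol carrier, at 0.38 ± 0.093 (adjusted p = 0.0820 and 0.0724, limma). Npc1, the membrane partner of Npc2, differed by 0.01 ± 0.096, with -0.29 at a dimmer probe set. Ppt1, which removes palmitate from proteins, gave 0.22 ± 0.081 (adjusted p = 0.167, limma). Psap, the precursor of the saposins that help split sphingolipids, had 9.84 and 9.78 after anti-DR3, against 9.79 and 9.69 after control antibody, which overlap. Lipa, the acid lipase, differed by 0.06 ± 0.12, and the glycosidase genes Gaa, Gusb and Hexa by 0.09, 0.14 and -0.03.

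Tfeb itself differed by -0.07 ± 0.086 and Mcoln1, the lysosomal calcium channel that acts upstream of it, by -0.01 ± 0.097 (adjusted p = 0.679 and 0.944, limma). Tfeb read 5.40 and 5.37 after anti-DR3, against 5.52 and 5.38 after control antibody, near the array medians of 5.33 to 5.39. The groups overlapped for both genes. Array levels of a transcription factor's RNA do not report its activity.

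**Figure D2:**
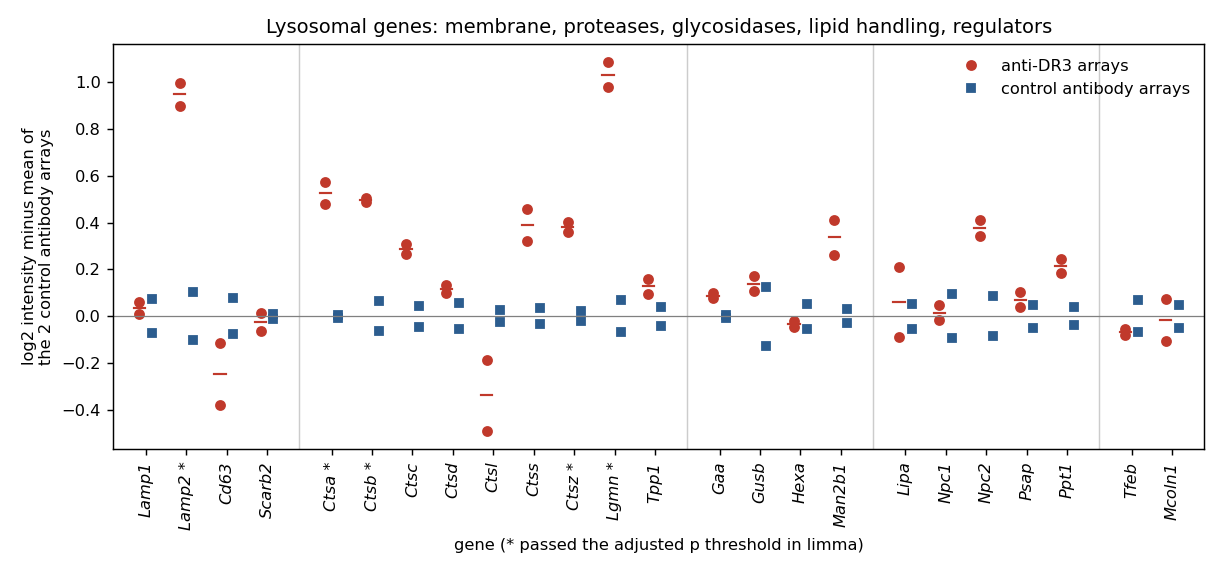
Log2 intensity of the 24 measured lysosomal genes on each array, less the mean of the 2 control antibody arrays (vertical axis), with anti-DR3 arrays as circles to the left of control antibody arrays as squares, grouped by role, and asterisks on genes that passed in limma. Lgmn and Lamp2 stand at 1.03 and 0.95, Ctsa, Ctsb and Ctsz between 0.38 and 0.53, and Ctsl at -0.34.

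Over the 24 measured lysosomal genes the median log2 difference was 0.12, against -0.02 over all 22180 measured genes, and over the 23 tested it was 0.13, against 0.01 over all genes tested. The median was higher among proteases (0.38) than among glycosidases (0.11) and lipid handling genes (0.07), a description of 9, 4 and 5 genes that was not tested. Centring each array on the median of the tested genes brought the lysosomal median to 0.061, the pump median with Atp6v0d2 included to 0.20 against 0.26, and the median of all genes tested to -0.05. Under that scaling 4 of the 6 genes kept their call and Atp6v0e and Ctsz lost it, while calls over all genes were 58.9% higher, against 75.3% without centring.

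**Figure D3:**
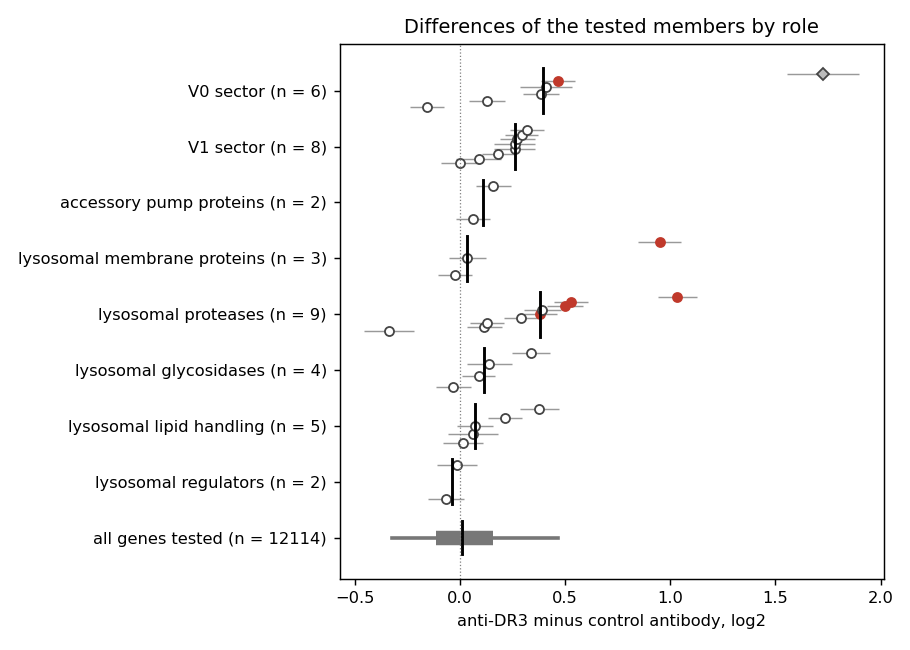
Log2 difference of anti-DR3 from control antibody (horizontal axis) with SE for 39 genes by role, filled red where the gene passed in limma, a grey diamond for Atp6v0d2, for which no test is given, black lines at the medians, and below them the 5th to 95th percentiles (thin bar) and quartiles (thick bar) of all 12114 genes tested. Role medians run from -0.04 for the regulators to 0.40 for the V0 sector, against 0.01 for all genes. The V0 median includes Atp6v0d2, which was chosen for its rise.

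Leaving out any of the 4 arrays lowered the count of 6, and none of the 6 kept its call in every such fit. The count over all genes tested fell in each of these fits as well, so the loss was not particular to these genes. With 1 array in a group the lone array was assumed to vary like the other group. In these fits the difference of Lgmn ran from 0.97 to 1.10, of Lamp2 from 0.85 to 1.05, of Ctsa from 0.48 to 0.58, of Ctsb from 0.43 to 0.56, of Ctsz from 0.36 to 0.40 and of Atp6v0e from 0.42 to 0.51. With no filter on dim genes 0 of 39 were called, against 14 of all 22180 genes (16 and 3573 had p below 0.05 before adjustment). With a trended robust prior 12 of 38 were called, against 1444 of all 12114 genes.

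**Figure D4:**
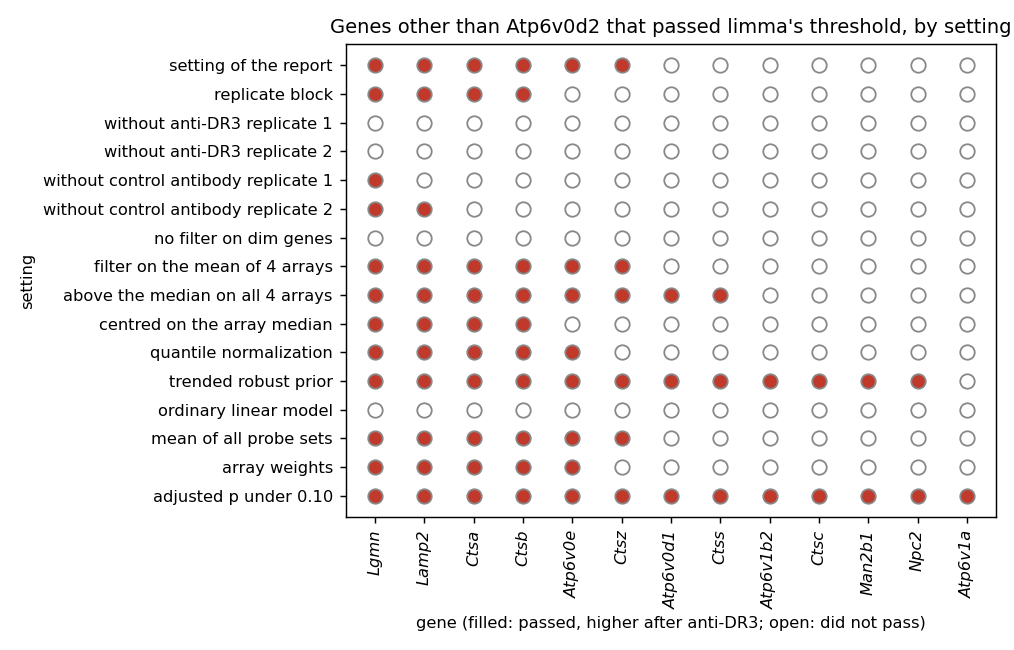
Genes of the group other than Atp6v0d2 (horizontal axis) that passed limma's threshold under each processing setting (vertical axis), filled where a gene passed and was higher after anti-DR3. Lgmn and Lamp2 passed in 11 and 10 of the 15 alternatives. Fewer genes passed with an array left out, as was so over all genes. With no filter on dim genes or in an ordinary linear model 0 of these genes passed, and calls over all genes were 14 and 0.

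Genes of the same pathway outside the 42 were counted in 7 lists, also drawn up with earlier results known, so nothing is read from the counts. The share called higher was 16% of lysosomal enzyme genes, 4.55% of lysosomal membrane genes and 6.25% of delivery genes. It was 4.49% of all genes tested, with 1.47% called lower. Of 25 tested lysosomal enzyme genes 4 rose and 0 fell. Gm2a, the cofactor for ganglioside breakdown, had 10.89 and 10.80 after anti-DR3, against 10.15 and 10.15 after control antibody, and rose 1.61-fold (0.69 ± 0.080, adjusted p = 0.0134, limma). Ggh, which trims folate polyglutamates, rose by 0.63 ± 0.093, Acp2, an acid phosphatase, by 0.48 ± 0.084 and Asah1, the acid ceramidase, by 0.47 ± 0.079 (adjusted p = 0.0239, 0.0348 and 0.0308, limma). Of 22 lysosomal membrane genes 1 rose, Ctns, the cystine exporter, by 0.39 ± 0.078 (adjusted p = 0.0451, limma). Among 16 tested genes of delivery to lysosomes, M6pr, a mannose phosphate receptor that carries new enzymes there, rose by 0.53 ± 0.084, and Gga3, an adaptor of that traffic, fell by 0.44 ± 0.080 (adjusted p = 0.0282 and 0.0373, limma). Of 17 tested genes of TFEB relatives and of the docking of the growth kinase mTORC1 on lysosomes 0 rose and 1 fell, Rptor, the scaffold of mTORC1, by 0.43 ± 0.089 (adjusted p = 0.0493, limma).

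Further pump subunits and assembly factors (10 tested), autophagy genes (18) and genes known beside Atp6v0d2 in osteoclasts and macrophages (8) had 0 calls in limma. Before adjustment 3, 3 and 2 of them were higher and 2, 0 and 1 lower at p below 0.05, where all genes tested gave 16.6% and 9.57%. The lists overlap. Tcirg1 is in the first and the last of these 3 and is counted as higher in both, and Acp5 and Ctsk are in the last and in that of lysosomal enzymes. The smallest p in each list belonged to Tcirg1, the a subunit of the osteoclast pump (0.29 ± 0.079, adjusted p = 0.0868), Ulk1, a kinase that starts autophagy (0.35 ± 0.081, adjusted p = 0.0633) and Trem2, a macrophage receptor (-0.35 ± 0.082, adjusted p = 0.0666). A further 3 genes were singled out after their values were seen. Itgb3, an integrin of osteoclasts and platelets in the last list, differed by 0.50 ± 0.12 (adjusted p = 0.0699, limma). In the list of further pump subunits and assembly factors Atp6v0e2, a paralog of Atp6v0e, differed by -0.58 ± 0.21 and Dmxl1, an assembly factor, by -0.27 ± 0.091 (adjusted p = 0.155 and 0.135, limma). Of the 6 rises and 2 falls in the 7 lists, limma kept the call of Gm2a without control antibody replicate 2, and of none of the 8 genes without any of the other 3 arrays.

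Markers of other cells were read beside these results, and in bulk RNA fewer or more cells of a type and less or more RNA per cell cannot be told apart. Of 19 measured monocyte and macrophage markers 2 of the 13 tested passed as higher and 0 as lower. Cybb, a subunit of the phagocyte oxidase, rose by 1.05 ± 0.077 and Csf1r by 0.42 ± 0.077 (adjusted p = 0.00779 and 0.0387, limma). Of all genes tested 4.49% were called higher and 1.47% lower. Before adjustment 3 of the 13 were higher and 2 lower at p below 0.05, against 16.6% and 9.57% of all genes tested. The 2 lower ones were Marco at -0.32 and Fcgr3 at -0.30 (adjusted p = 0.0802 and 0.109, limma). The summed intensity of the 19 was 1260 and 1337 after anti-DR3, against 1012 and 1040 after control antibody. Without Cybb, which was singled out after its values were seen, the sums of the other 18 were 836 and 909 after anti-DR3, against 808 and 833 after control antibody. Of the 19 markers 5 lay below the median of all probe sets on every array (Adgre1, Cd14, Fcgr1, Cd163 and Vsig4), and 10 lay above it on every array (Csf1r, Lyz2, C1qa, C1qb, Mrc1, Marco, Fcer1g, Fcgr3, Spi1 and Cybb). Of 5 tested MHC class II genes H2-Aa and H2-Ab1 rose by 0.70 and 0.55 (adjusted p = 0.0367 and 0.0490, limma). H2-DMa, Ciita and H2-Eb1 differed by 0.37, 0.13 and 0.08 and did not pass. H2-Aa read 5.65 and 5.36 after control antibody, near the array medians. The summed intensity of the 6 measured MHC class II genes was 548 and 525 after anti-DR3, against 437 and 415 after control antibody. B cell markers summed to 242 and 260 after anti-DR3, against 243 and 241 after control antibody, with 5 of 7 below the median on every array. Dendritic cell markers summed to 583 and 584 after anti-DR3, against 627 and 681 after control antibody, with 4 of 7 below the median on every array. Cd209a, singled out after its values were seen, differed by -0.25 (adjusted p = 0.183, limma), and without it the sums were 216 and 204.5 after anti-DR3, against 215 and 202 after control antibody. Neutrophil markers summed to 216 and 210.0 after anti-DR3, against 220.0 and 227 after control antibody, with 7 of 9 below the median on every array. The 8 measured Treg markers, among them Foxp3 and Cd3e, were all above the median, with sums of 18170 and 18200 after anti-DR3, against 17220 and 16650 after control antibody. Ikzf2 was higher by 0.58 and Il2ra lower at -0.49 (adjusted p = 0.0193 and 0.0441, limma). Of these marker calls, Csf1r, H2-Aa, H2-Ab1, Ikzf2 and Il2ra lost theirs without any 1 of the 4 arrays, and Cybb without either anti-DR3 array. Centring also ended the calls of Csf1r and H2-Ab1 (adjusted p = 0.0627 and 0.0670, limma). The part of other cells in the values of the lysosomal genes was not tested.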

How the data were processed

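Biotin-labelled RNA of sorted mouse Treg was hybridised to Affymetrix arrays, 2 in each group, per the labels' protocols. The authors deposited linear intensities for 41345 probe sets, for which the submitters' processing notes name RMA (robust multi-array average). Its version and the genome build: not given in the sources used here. RMA as a method equalises probe distributions between arrays, which can hide a change common to all genes. The platform annotation gave 1 symbol to 23521 probe sets, several to 1814 and none to 16010. Precision is limited by the number of arrays.

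Log2 was taken, genes above the array median on at least 2 of 4 arrays were tested (12114 genes), and the 2 groups entered limma 3.58.1 under R 4.3.3 (lmFit, eBayes, two-sided, 2 residual and 3.94 prior degrees of freedom), adjusted over all genes tested. The code was tested on simulated data. An exact permutation test with 2 against 2 arrays cannot go below p = 0.333. The rule named all 42 genes and, of each pathway list, up to 4 called genes or the gene with the smallest p. Members and lists were chosen with earlier results of these data known. Alternatives covered a replicate block, each array left out, filters, scaling, priors, array weights, probe sets and the threshold. Promoter windows are RefSeq's (GRCm38.p6). Figures were drawn with matplotlib 3.10.9.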

Additional observations from a re-analysis of the deposited data

How the results depend on the processing

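Over the 38 tested genes other than Atp6v0d2 and the 15 alternatives, 496 differences stayed on their side of 0 and of the threshold, the call was lost in 39 and gained in 15, and 18 turned direction, all 18 in genes that were not called. With each array left out in turn limma called 0 to 245 genes higher and 0 to 67 lower over all genes, 0 to 3 of the 42 higher (here and below counted with Atp6v0d2, which was chosen for its rise), and 0 to 2 higher and 0 to 1 lower in the pathway lists. The median of the pump genes ran from 0.20 to 0.29 and that of the lysosomal genes from 0.10 to 0.15. In these fits the differences ran from -0.088 to 0.21 for Lipa, -0.080 to 0.11 for Npc1, -0.088 to 0.087 for Atp6v1f, -0.033 to 0.21 for Atp6v1g1, -0.064 to 0.015 for Scarb2, -0.11 to 0.075 for Mcoln1, -0.13 to 0.0022 for Tfeb, -0.040 to 0.11 for Lamp1 and -0.087 to 0.022 for Hexa. No filter on dim genes gave 14 higher and 0 lower over all genes, and 0 of the 42 and 0 and 0 in the pathway lists. The stricter filter gave 10 higher in the pathway lists. Centring gave 348 higher over all genes and 3 higher in the pathway lists, with medians of 0.20 for the pump and 0.061 for lysosomal genes, and Lamp1 at -0.027 and Npc1 at -0.046. Quantile normalization gave medians of 0.21 and 0.084, with Atp6v1f at 0.027, Lamp1 at -0.00288 and Npc1 at -0.020. The mean of all probe sets put Npc1 at -0.14. A trended robust prior gave 1082 higher and 362 lower over all genes, 13 of the 42 and 12 higher in the pathway lists. An ordinary linear model gave 0 of each, with 2087 genes under an unadjusted p of 0.05 and 16 of the 42. Array weights gave 1 lower in the pathway lists. An adjusted p under 0.10 gave 1171 higher and 518 lower over all genes, 14 of the 42, and 13 higher and 4 lower in the pathway lists. The cause was not tested for any of these. What a shared replicate number stands for is not stated, and differences between replicates correlated at 0.0512 between the groups. The replicate block called 5 of the 42, without Atp6v0e and Ctsz, and 0 lower in the pathway lists, and ended the calls of Csf1r and H2-Ab1 (adjusted p = 0.0598 and 0.0557, limma). H2-Ab1 lost its call in 10 and Csf1r in 8 of 15 alternatives.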
